A study of Mus musculus with 41 samples.

Results

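This report describes wild-type plasma cells of the mouse spleen, set against follicular B cells of the same tissue and genotype. The members are the 7 libraries so labelled among 41 in the series: 3 of plasma cells (Plasma_wt) and 4 of follicular B cells (Follicular_wt). Polyadenylated RNA was sequenced in bulk from cells sorted by flow cytometry, and the series as a whole covers 6 B cell subsets in 2 genotypes. Plasma_wt cells were sorted as B220+CD138+ and Follicular_wt cells as B220+CD93-CD138-GL7-FAS-CD21+CD23+. Both came from the spleens of untreated mice of 3 to 5 months with the genotype label wt. The same pair of subsets was also sorted from mice labelled 1Mek2 (Plasma_1Mek2, 3 libraries, and Follicular_1Mek2, 4 libraries). These carried Mek1flox/flox, Mek2+/- and the transgene Tg+/Vav1-icre, in which the Vav1 promoter drives Cre recombinase in blood cells, and they serve below as a separate set of samples for the same contrast. The 7 wild-type libraries came from 6 animals, since animal 412 gave Plasma_wt replicate 2 and Follicular_wt replicate 1.

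Follicular B cells are resting, recirculating cells that carry IgM and IgD on their surface and wait for antigen in the follicles of spleen and lymph nodes. Plasma cells are the end stage of the lineage. Prdm1 (Blimp-1) shuts off the B cell program, Xbp1 enlarges the endoplasmic reticulum (ER), and the cell turns most of its protein synthesis to secreted antibody. The antibody chains are moved into the ER through the Sec61 channel, folded by chaperones and disulfide isomerases, glycosylated, checked by ER-associated degradation and carried to the Golgi in COPII vesicles.

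Values below are TMM-scaled CPM (counts scaled to library size) over gene spans, listed in replicate order, and levels of different genes are compared only in TPM, which also divides by length. A log2 fold change is Plasma_wt over Follicular_wt and is given with its standard error (SE). "Rose", "fell" and "called" mean an adjusted p of 0.05 or less over all genes tested by edgeR. Total counts were 15396050 to 18516751 in Plasma_wt and 25201826 to 33450184 in Follicular_wt. Nothing in the labels says which replicates share a sort or a preparation, so the p-values measure the spread between these libraries. Exon reads per 100 gene-span counts numbered 102.3, 84.9 and 100.3 in Plasma_wt, against 63.2, 64.3, 61.7 and 87.3 in Follicular_wt, so the share of intron reads moved with the contrast. Within Follicular_wt, replicate 4 stood apart in this measure and with ER genes, Xbp1 and Jchain nearer to the plasma cell level. Within Plasma_wt, replicate 2 had the lowest Jchain and ER values and the highest T cell and neutrophil values, and replicate 1 lay opposite it on the leading axis of spread within groups, which held 47.9% of that spread. Follicular_wt replicate 2 was the only one of the 7 with more than 1.37 CPM on Y-linked genes (339 CPM), and sex was no term in the fit.

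The Plasma_wt libraries carried RNA of other blood cells. T cell genes summed to 5085 to 10235 CPM in Plasma_wt and 325 to 876 CPM in Follicular_wt, and 15 of the 16 tested rose, against 12.2% of all genes tested. The gene-span counts miss some genes, listing them at 0 in all 7 libraries although they hold exon reads, and such genes are given here in TPM. The T cell receptor constant genes are among them. Trac had 1193, 2271 and 1042 TPM in Plasma_wt, against 6.10, 3.02, 52.2 and 49.3 TPM in Follicular_wt. Trbc1 had 536, 1532 and 511 TPM in Plasma_wt, against 6.64, 0, 27.1 and 40.5 TPM in Follicular_wt. Trbc2 had 602, 1614 and 714 TPM in Plasma_wt, against 4.49, 3.19, 44.7 and 35.3 TPM in Follicular_wt. Each of these was far higher in every Plasma_wt library, and the sums above do not include them. Neutrophil genes summed to 1727 to 5246 CPM in Plasma_wt and 0.411 to 2.19 CPM in Follicular_wt, and all 13 tested rose. Lcn2, Elane, Mmp8, Ly6g, Cebpe, Prtn3 and Ctsg were at 0 in every Follicular_wt library, and Ly6g and Ctsg were not tested. Genes near 0 in Follicular_wt could pass the filter on low counts only through Plasma_wt. For such genes, here and in the lists below, the count that rose was largely fixed in advance and is no result by itself. Natural killer cell genes summed to 909.7 to 1440.2 CPM in Plasma_wt and 7.09 to 24.3 CPM in Follicular_wt (9 of 9 rose), monocyte and macrophage genes to 2047 to 3254 CPM and 80.2 to 329 CPM (10 of 12), and erythroid genes to 1513 to 2499 CPM and 131 to 287 CPM (9 of 10). Of members that the gene-span counts miss, the cytotoxic granule gene Gzma had 296, 969.6 and 239.6 TPM in Plasma_wt, against 2.65, 2.001, 0.240 and 6.52 TPM in Follicular_wt. The heme synthesis gene Alas2 had 14.1, 59.7 and 26.9 TPM in Plasma_wt, against 2.71, 4.47, 3.50 and 3.34 TPM in Follicular_wt. The erythroid transcription factor gene Gata1 had 2.58, 21.4 and 13.7 TPM in Plasma_wt, against 0, 0, 0 and 0.578 TPM in Follicular_wt. All 3 were higher in every Plasma_wt library. Basophil, mast cell and eosinophil genes summed to 509.7 to 1244 CPM in Plasma_wt and 0.128 to 0.636 CPM in Follicular_wt (5 of 5 tested among 9 listed rose). Most of this sum was Prg2, with 979, 407 and 1133 CPM in Plasma_wt. The eosinophil genes Epx (0, 0.214 and 0 CPM in Plasma_wt) and Siglecf (8.96, 0.160 and 0 CPM) held few reads and were not tested. The cell source of the Prg2 reads was not tested. Platelet genes (72.9 to 94.0 CPM in Plasma_wt and 25.8 to 52.0 CPM in Follicular_wt, 3 of 6), conventional dendritic cell genes (156 to 246 and 33.4 to 51.9 CPM, 5 of 8), plasmacytoid dendritic cell genes (825 to 916 and 392 to 583 CPM, 4 of 9) and marginal zone B cell genes (760.2 to 812 and 547 to 711 CPM) were less far apart. Stromal and endothelial genes were lower in Plasma_wt (127 to 158 CPM against 374 to 422 CPM in Follicular_wt), through Pecam1 alone among those called, and germinal center genes overlapped (169.8 to 244 and 106 to 406 CPM). Except for the germinal center list (p = 0.286, adjusted 0.327), each sum gave an exact two-sided permutation p of 0.0571, the smallest that 3 libraries against 4 allow, and 0.0761 adjusted over the lists. In bulk RNA, fewer cells of a type and less RNA per cell cannot be told apart, and the part of these cells in the gene differences below was not tested.

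**Figure D1:**
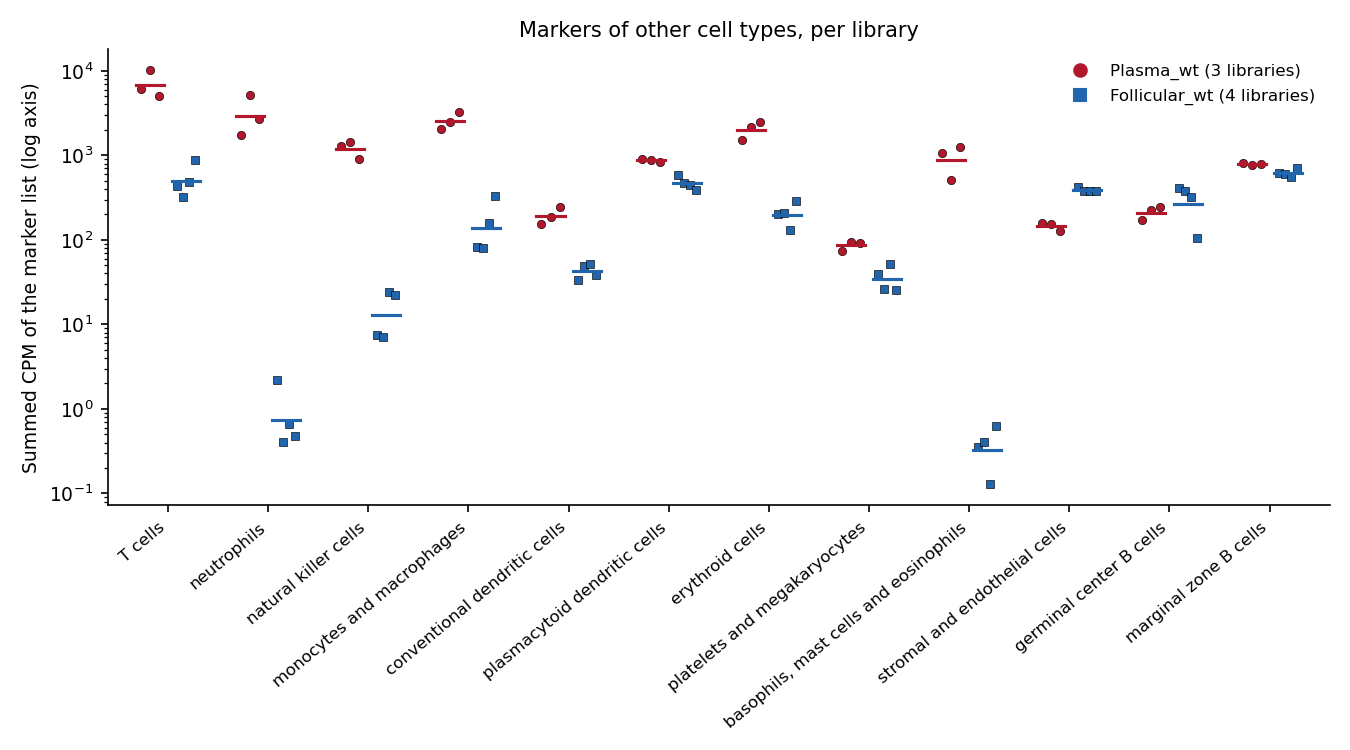
Summed level of 12 marker lists of other cells in each library (CPM, log axis), Plasma_wt at left and Follicular_wt at right of each pair; points are libraries and the line is the geometric mean. In 10 lists every Plasma_wt library lay above every Follicular_wt library, with a wide gap for neutrophils (1727 to 5246 CPM against 0.411 to 2.19 CPM).

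The question of this contrast is how the RNA of the antibody-secreting end stage differs from that of its resting precursor type. Plasma cells carried far more RNA for the antibody joining chain, the plasma cell regulators and ER folding, and far less for many B cell identity and antigen receptor signalling genes and for part of the antigen presentation genes. Of 15563 genes tested, 2754 passed (17.7%), of which 1893 rose in Plasma_wt (12.2%) and 861 fell (5.53%). The genes that rose did so by a median log2 fold change of 4.51, and those that fell by a median of -2.07. The groups did not overlap for 1855 of the 1893 and 817 of the 861, and over all genes tested 2501 (16.1%) lay wholly higher and 2119 (13.6%) wholly lower in Plasma_wt. Within animal 412, which gave a library to both groups, 1892 of the 1893 and 860 of the 861 had the same direction. Both of its libraries were among those that gave the calls, so this direction was largely fixed and is no separate check. Without Follicular_wt replicate 4 the test passed 4616 of 15082 genes (30.6%; 19.7% higher and 10.9% lower), including 1852 of the 1893 and 840 of the 861. Exon reads alone, tested the same way, called 1888 of 15548 genes higher (12.1%) and 616 lower (3.96%), and these included 1375 of the 1893 but only 468 of the 861. The count that fell was 472, 441 and 439 without Follicular_wt replicate 1, 2 or 3, 1640 without Follicular_wt replicate 4, 1394 without Plasma_wt replicate 2 and 431 without Plasma_wt replicate 3, and the count that rose was 2976 without Follicular_wt replicate 4.

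The 3 defining markers of plasma cells were high in all Plasma_wt libraries. Jchain (chromosome 5, 88667663 to 88675667, GRCm39), which joins IgM and IgA into polymers, had 14109, 6050.5 and 11193 CPM in Plasma_wt, against 3.96, 5.67, 3.19 and 20.3 CPM in Follicular_wt (log2 fold change 10.30 ± 0.90, edgeR adjusted p = 0.000259). Prdm1 (chromosome 10, 44313170 to 44404579), the repressor that drives the plasma cell fate, had 142, 27.2 and 62.6 CPM in Plasma_wt, against 1.33, 3.02, 1.75 and 0.508 CPM in Follicular_wt (log2 fold change 5.54 ± 0.75, edgeR adjusted p = 0.00142). Derl3 (chromosome 10), a derlin of ER-associated degradation, had 215, 131 and 275 CPM in Plasma_wt, against 3.64, 4.93, 3.38 and 5.53 CPM in Follicular_wt (log2 fold change 5.57 ± 0.39, edgeR adjusted p = 0.000163). The groups were far apart for each of them, with Plasma_wt replicate 2 the lowest plasma library each time and Follicular_wt replicate 4 the highest follicular library for Jchain and Derl3.

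Of 24 plasma cell regulators and surface genes, 23 were tested, 16 rose and 2 fell, with a median log2 fold change of 2.42. Over all genes tested, 12.2% rose and 5.53% fell, with a median of -0.01. Xbp1, the transcription factor of secretory cells, had 3112, 1429.5 and 2946 CPM in Plasma_wt, against 67.1, 38.1, 37.2 and 274 CPM in Follicular_wt (4.58 ± 0.78). Sdc1, which encodes the sorting antigen CD138, had 278, 88.3 and 335 CPM in Plasma_wt, against 1.84, 1.16, 2.23 and 9.72 CPM in Follicular_wt (5.96 ± 0.85). Both were higher in every plasma library. Sdc1 is no independent result because the gates used its product, and neither is Cd93, since Follicular_wt cells were sorted as CD93-; both are among the 16. Tnfrsf17 (BCMA), the receptor through which plasma cells receive survival signals, had 45.7, 17.004 and 69.5 CPM in Plasma_wt, against 0.744, 0.0373, 0 and 0.508 CPM in Follicular_wt (7.08 ± 1.16). Mzb1, an ER co-chaperone of IgM assembly, rose by 2.04 ± 0.46 on the log2 scale, and Ell2, the elongation factor that favours the secreted form of heavy chain mRNA, by 2.42 ± 0.50. Slamf7 (2.51 ± 0.38), the costimulatory receptor gene Cd28 (6.86 ± 1.10), the tetraspanin gene Cd9 (3.44 ± 0.79), the adhesion gene Epcam (2.56 ± 0.59), Ly6k (1.30 ± 0.36), the gp130 gene Il6st (2.42 ± 0.38), Cd93 (3.79 ± 0.61) and Fndc3b (2.67 ± 0.47) also rose. T cells also express Cd28, which had 658, 301 and 375 CPM in Plasma_wt, against 0.274, 0.672, 8.36 and 5.88 CPM in Follicular_wt, beside T cell sums of 6062, 10235 and 5085 CPM in the 3 plasma libraries, and the part of T cell RNA in its rise was not tested.

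Irf4, which both starts and maintains the plasma cell program, had 256, 74.9 and 285 CPM in Plasma_wt, against 83.2, 81.7, 70.5 and 72.5 CPM in Follicular_wt (log2 fold change 1.41 ± 0.42, edgeR adjusted p = 0.0477). Plasma_wt replicate 2 lay within the follicular range, and within animal 412 the log2 ratio was -0.15. Pou2af1 (-1.01 ± 0.52), Tnfrsf13b, the gene of TACI (-0.19 ± 0.56), Il5ra (1.09 ± 0.60), Zbtb20 (-0.12 ± 0.35) and Glcci1 (-0.63 ± 0.41) were not called, and Cav1 was not tested. The members that fell were Cd38, an ectoenzyme of resting mouse B cells, with 58.8, 19.04 and 58.6 CPM in Plasma_wt, against 602, 601, 514 and 911 CPM in Follicular_wt (-3.85 ± 0.50), and the Ikaros family gene Ikzf3 (-1.96 ± 0.46). With 1 library left out, calls ended, with the log2 fold changes then found in brackets, for Irf4 (1.01 to 1.45) without Plasma_wt replicate 1 or 3 or Follicular_wt replicate 1, 2, 3 or 4, Ly6k (1.05 to 1.29) without Plasma_wt replicate 1 or 3 or Follicular_wt replicate 2 or 3, Epcam (2.02 to 2.40) and Ikzf3 (-1.94 to -1.93) without Plasma_wt replicate 1 or 3, and Cd9 (3.29) and Mzb1 (1.68) without Plasma_wt replicate 3. The list lost 1 of its 2 falling members without Plasma_wt replicate 1 or 3.

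**Figure D2:**
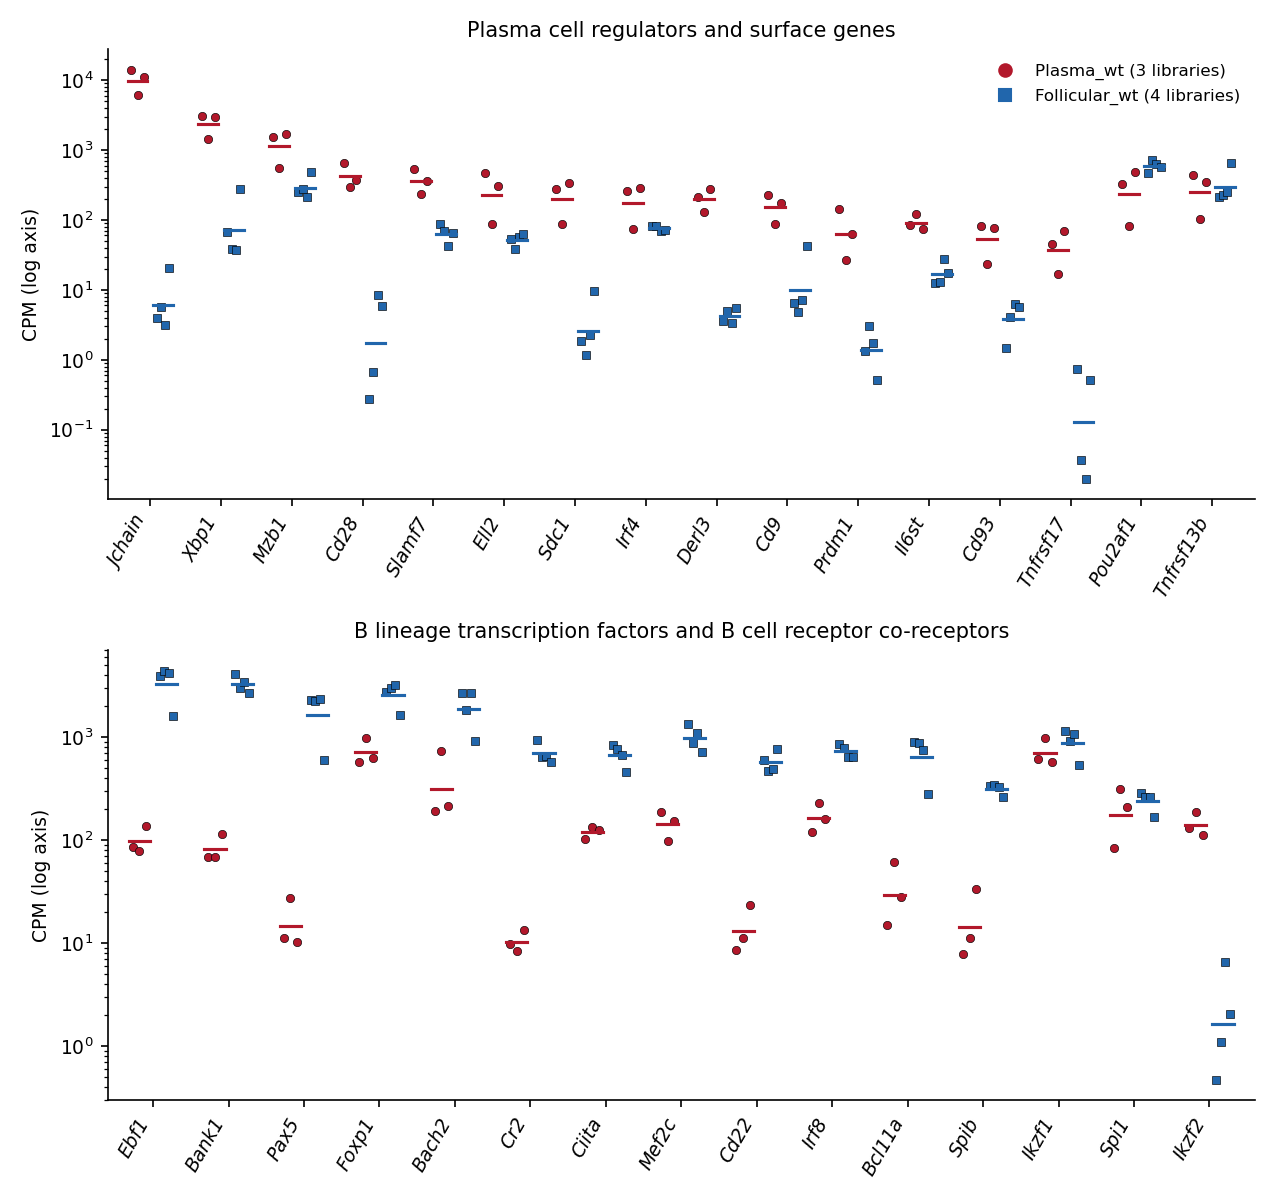
Level of plasma cell regulators and surface genes (upper panel) and B lineage transcription factors and receptor co-receptors (lower panel) in each library (CPM, log axis), Plasma_wt left of Follicular_wt for each gene; points are libraries, the line is the geometric mean, and values of 0 are drawn at 0.02 CPM. Jchain, Xbp1, Prdm1 and Sdc1 are apart in the plasma direction, Pax5 and Ebf1 in the follicular direction, and the points of Irf4 overlap.

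Antibody genes took far more of the RNA of plasma cells than of follicular cells, with 13.4%, 6.91% and 12.2% of exon reads in Plasma_wt against 1.29% to 1.64% in Follicular_wt. In the gene-span counts all constant genes other than Igha were at 0, so they were compared as log2(TPM + 1), which understates the change of low genes, by limma over 14342 entries, of which 31.3% were called (10.8% higher and 20.4% lower in Plasma_wt). On this scale the median of all entries was -0.62, which is -0.19 after median centring, and the changes below, which are not centred, are to be read against it. Of 13 genes, which are 12 constant genes and Jchain, 12 were called, with 10 higher and 2 lower.

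Igha, the heavy chain of mucosal antibody, had 11703, 12067 and 10714 TPM in Plasma_wt, against 10.1, 9.74, 9.58 and 13.1 TPM in Follicular_wt (log2 fold change 9.96 ± 0.28, limma adjusted p = 2.17e-07). Neither group spread widely around these levels. Ighm had 11996, 11197 and 11960.0 TPM in Plasma_wt, against 2848, 2033, 2063 and 4659.6 TPM in Follicular_wt (2.10 ± 0.32). Ighd, made chiefly by naive B cells, had 14.1, 6.21 and 9.67 TPM in Plasma_wt, against 1058, 1284, 1661 and 3903 TPM in Follicular_wt (-7.36 ± 0.48), so every plasma library lay below every follicular one. The IgG genes rose by 7.75 ± 0.52 (Ighg1), 6.84 ± 0.67 (Ighg2b), 8.37 ± 0.47 (Ighg2c) and 3.97 ± 0.45 (Ighg3). Ighe, of IgE, had 205, 10.03 and 180.1 TPM in Plasma_wt, against 0, 0.0701, 0.0714 and 0 TPM in Follicular_wt (6.17 ± 0.89), with Plasma_wt replicate 2 well below the other two plasma libraries. Of the heavy constant TPM, Ighm held 40.9 ± 1.56% and Igha 40.2 ± 5.26% in Plasma_wt, against 59.9 ± 8.35% and 0.236 ± 0.0589% in Follicular_wt (SD, n = 3 and 4). Ighd held 0.0343 ± 0.0119% in Plasma_wt and 38.3 ± 8.39% in Follicular_wt.

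Among light chains, Igkc averaged 26756 ± 2797 TPM in Plasma_wt and 16786 ± 2814 TPM in Follicular_wt (log2 fold change 0.68 ± 0.22, limma adjusted p = 0.0385) and Iglc1 8112 ± 1026 TPM in Plasma_wt and 2213 ± 410.5 TPM in Follicular_wt (log2 fold change 1.88 ± 0.25, limma adjusted p = 0.000575). Iglc2 was not called (-0.23 ± 0.42), and Iglc3 had 2479.6, 548 and 3057 TPM in Plasma_wt, against 5779.7, 7539, 5653 and 3560.0 TPM in Follicular_wt (log2 fold change -1.76 ± 0.55, limma adjusted p = 0.0375). Iglc2 and Iglc3 are near-identical copies whose reads can be split between them, and in edgeR on exon reads Iglc3 was not called (-0.81 ± 0.58, adjusted p = 0.4). Iglc2 turned to 0.20 with median centring, 0.53 in exon reads and 0.28 without Plasma_wt replicate 2. Iglc1 held 19.2 ± 1.63% of light constant TPM in Plasma_wt and 7.36 ± 0.951% in Follicular_wt, and Igkc 63.8 ± 10.01% and 55.7 ± 5.22%. Many variable segments were in use in both groups. The fewest of 183 heavy variable segments that together held 50% of the reads was 13 to 17 in Plasma_wt and 12 to 17 in Follicular_wt, on 97865 to 315101 and 2558 to 22447 reads. For 162 kappa segments it was 16 to 20 and 12 to 17, and the leading segment held 3.77% to 4.64% in Plasma_wt (Igkv8-30 in each) and 7.2% to 16.4% in Follicular_wt (Igkv6-23 or Igkv6-15).

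**Figure D3:**
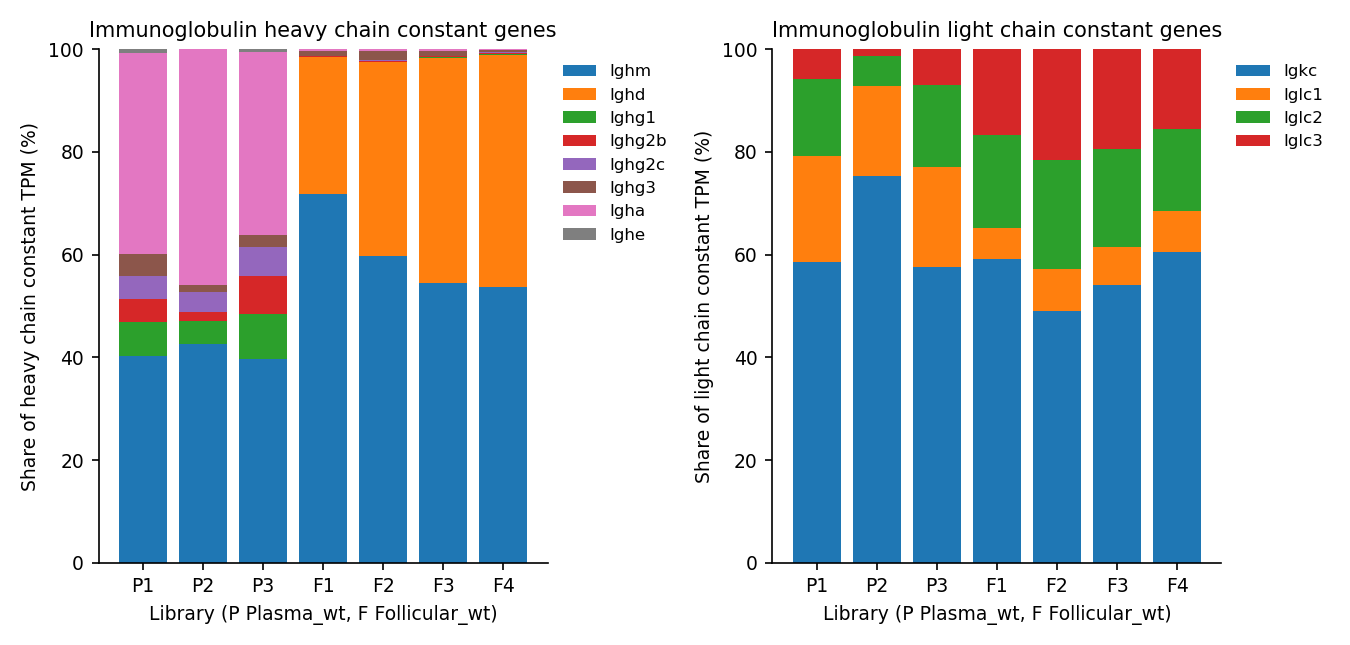
Share of each constant gene in the summed heavy chain (left) and light chain (right) constant TPM of each library (percent), P1 to P3 being Plasma_wt replicates 1 to 3 and F1 to F4 Follicular_wt replicates 1 to 4. Igha held 35.6% to 45.9% of the heavy share in Plasma_wt and under 0.287% in Follicular_wt, where Ighd held 26.7% to 45.0%.

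Chaperones and oxidative folding enzymes of the ER had the largest median rise among the lists of the secretory route. Of 27 tested members of 28, 14 rose and 1 fell, against 12.2% and 5.53% of all genes tested, with a median log2 fold change of 1.92. Hsp90b1, the ER member of the HSP90 family, had 4788, 1366 and 3434 CPM in Plasma_wt, against 291, 254, 251 and 779.6 CPM in Follicular_wt (log2 fold change 3.02 ± 0.56, edgeR adjusted p = 0.0061). Creld2, a secreted ER stress-responsive isomerase, had 1021, 539 and 1063 CPM in Plasma_wt, against 45.7, 36.6, 32.03 and 66.2 CPM in Follicular_wt (log2 fold change 4.28 ± 0.40, edgeR adjusted p = 0.000329). Dnajc3, a co-chaperone that also inhibits the stress kinase PERK, had 861, 464 and 703 CPM in Plasma_wt, against 50.5, 54.1, 54.97 and 78.3 CPM in Follicular_wt (log2 fold change 3.51 ± 0.34, edgeR adjusted p = 0.000331). The groups were apart for all 3, and Follicular_wt replicate 4 was the highest follicular library each time. Prdx4, an ER peroxiredoxin, rose by 3.02 ± 0.44. Pdia5, a disulfide isomerase, had 6.75, 4.38 and 6.87 CPM in Plasma_wt, against 0, 0, 0.0638 and 0 CPM in Follicular_wt, with 1 library of Follicular_wt holding any read. Pdia6, another isomerase, had 1210.3, 608 and 1004 CPM in Plasma_wt, against 106, 67.5, 58.5 and 419 CPM in Follicular_wt (2.53 ± 0.69). Hspa5 (BiP), the chaperone that binds unassembled heavy chains, had 711, 285 and 635 CPM in Plasma_wt, against 83.2, 91.4, 104 and 296 CPM in Follicular_wt (log2 fold change 1.92 ± 0.53, edgeR adjusted p = 0.034), and Follicular_wt replicate 4 lay above Plasma_wt replicate 2. The lectin chaperone Calr had 759, 450.1 and 919.6 CPM in Plasma_wt, against 206, 134, 131 and 433 CPM in Follicular_wt (log2 fold change 1.65 ± 0.48, edgeR adjusted p = 0.0421), while its partner Canx was not called (0.90 ± 0.57). Ero1b, an oxidase that recharges the isomerases, was the member that fell (45.9, 32.1 and 53.9 CPM in Plasma_wt, against 167, 129, 120.1 and 124 CPM in Follicular_wt, log2 fold change -1.62 ± 0.31, edgeR adjusted p = 0.00656), whereas its paralogue Ero1a was among those that rose. No member of this list was called lower in exon reads or in the contrast of 1Mek2 libraries, so the fall of Ero1b was not called there. Calls ended for Hspa5 (1.64 to 1.79), Calr (1.34 to 1.61) and Pdia6 (2.25 to 2.39) without Plasma_wt replicate 1 or 3 or Follicular_wt replicate 1, 2 or 3. The number that rose was 8 without Plasma_wt replicate 1 or 3 or Follicular_wt replicate 1, 2 or 3, and 19 without Follicular_wt replicate 4.

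These genes are textbook targets of XBP1 and ATF6, which bind the ER stress element (ERSE), so promoters were searched for it. The element was spelled CCAAT, any 9 bases, CCACG, on both strands, in the 250 bases before to 50 bases after each start. The promoter sequences are RefSeq's, of build GRCm38.p6, an older build than that of the counts, and their coordinates belong to it. It occurred in 37 of 27025 promoters (0.137%), in 8 of the 25 ER chaperone promoters at hand (32%; 6 rose, 1 fell and 1 was not called) and in 2 of the 16 promoters of ER-associated degradation (12.5%; Derl3 rose and Syvn1 fell). No other program list had a match. Of all 37, 22 were tested, and 9 rose and 3 fell, against 12.2% and 5.53% of all genes tested. Most of these are the members of both ER lists just counted, so the total is no separate result. Outside those lists only Tdrd9 and Zfp57 rose and only Pan2 fell. The windows of all matched members but Canx are shown, because their genes moved in both directions in the gene-span counts. Each is read 5′ to 3′ on the gene's own strand, with both parts of the element in capitals, as CCAAT and CCACG or, where it lies on the other strand, as CGTGG and ATTGG.
Derl3 (rose by 5.57, chr10:75893222-75893280, + strand): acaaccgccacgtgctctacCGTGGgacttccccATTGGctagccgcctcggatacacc
Creld2 (rose by 4.28, chr15:88819500-88819558, + strand): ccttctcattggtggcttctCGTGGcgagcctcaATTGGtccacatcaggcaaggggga
Dnajc3 (rose by 3.51, chr14:118937807-118937865, + strand): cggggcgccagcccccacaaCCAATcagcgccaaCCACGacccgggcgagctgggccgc
Hsp90b1 (rose by 3.02, chr10:86705513-86705571, - strand): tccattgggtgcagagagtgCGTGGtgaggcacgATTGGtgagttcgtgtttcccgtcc
Hsp90b1, second match (chr10:86705618-86705676, - strand): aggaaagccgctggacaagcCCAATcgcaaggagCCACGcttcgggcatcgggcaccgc
Pdia6 (rose by 2.53, chr12:17266471-17266529, + strand): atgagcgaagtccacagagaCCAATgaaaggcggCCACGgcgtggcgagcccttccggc
Hspa5 (rose by 1.92, chr2:34772005-34772063, + strand): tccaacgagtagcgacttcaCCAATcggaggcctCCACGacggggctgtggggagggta
Calr (rose by 1.65, chr8:84847055-84847113, - strand): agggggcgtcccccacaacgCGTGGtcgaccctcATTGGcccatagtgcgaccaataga
Syvn1 (fell by 1.59, chr19:6046512-6046570, + strand): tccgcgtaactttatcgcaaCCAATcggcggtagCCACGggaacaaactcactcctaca
Ero1b (fell by 1.62, chr13:12565662-12565720, + strand): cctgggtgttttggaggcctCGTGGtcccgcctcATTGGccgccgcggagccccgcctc
The Creld2 window is the same stretch of DNA as that of its neighbour Alg12 on the other strand, and Alg12, of N-glycan assembly, was not called (0.22, edgeR adjusted p = 0.754). A related spelling, ERSE-II (ATTGG, any base, CCACG), was in 12 promoters (0.0444%), among them those of Herpud1, which rose, and of Dnajb11 and Krtcap2, which were not called. A match describes these letters only and says nothing of binding in these cells.

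The degradation arm showed the same split between members. Of 19 genes of ER-associated degradation, 9 rose and 1 fell (median 1.56), against 12.2% and 5.53% of all genes tested. After Derl3, the largest rises were of Edem2, which trims mannose from misfolded glycoproteins, with 662, 408 and 492 CPM in Plasma_wt, against 77.1, 69.03, 58.8 and 114 CPM in Follicular_wt (2.71 ± 0.34), and Ube2j1, an ER ubiquitin-conjugating enzyme (2.63 ± 0.61). Herpud1, a scaffold of the complex, had 2262, 627 and 1573 CPM in Plasma_wt, against 157, 172, 171 and 492 CPM in Follicular_wt (2.58 ± 0.56), and Sel1l, the partner of the ligase HRD1, rose by 2.51 ± 0.46. Syvn1, the gene of HRD1 itself, had 98.9, 64.9 and 92.6 CPM in Plasma_wt, against 309, 360.0, 250.3 and 107 CPM in Follicular_wt (log2 fold change -1.59 ± 0.43, edgeR adjusted p = 0.0321). All 3 plasma libraries lay below all 4 follicular libraries for Syvn1, although Follicular_wt replicate 4 was close to them. In the contrast of 1Mek2 libraries no member of this list was called lower. With 1 library left out, calls ended for Ube2j1 (2.23 to 2.48) without Plasma_wt replicate 3 or Follicular_wt replicate 2 or 3 and Syvn1 (-1.74 to -1.38) without Plasma_wt replicate 1, 2 or 3 or Follicular_wt replicate 1, 2 or 3.

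Stress sensing is the task of the unfolded protein response, which adjusts folding capacity to the load of the ER. Of 19 tested members of 20 in the list of unfolded protein response sensors and the ATF4 branch, 3 rose and none fell (median 0.73), where 12.2% of all genes tested rose. Ern1, the gene of IRE1-alpha, which splices Xbp1, had 169, 49.99 and 97.7 CPM in Plasma_wt, against 11.1, 19.8, 18.2 and 8.87 CPM in Follicular_wt (2.86 ± 0.48). Creb3l2, a membrane-bound transcription factor of secretory cells, had 56.8, 62.5 and 61.6 CPM in Plasma_wt, against 19.2, 12.4, 13.9 and 3.27 CPM in Follicular_wt (2.30 ± 0.52), and Atf3 was the other. Atf4 (0.62 ± 0.32, adjusted p = 0.235 in edgeR) and Ddit3, the gene of CHOP (0.78 ± 0.33, 0.146), the transcription factors of the PERK branch, were not called. Members that rose numbered 7 without Follicular_wt replicate 4, where 2 also fell, and Creb3l2 lost its call without Plasma_wt replicate 3 (2.24).

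Entry into the ER, glycosylation and export rose in part. In the list of translocation and signal peptide cleavage, 7 of 24 rose and none fell (median 1.09), where 12.2% of all genes tested rose. Spcs2, a subunit of the signal peptidase, had 1458, 598 and 1348 CPM in Plasma_wt, against 161, 160.5, 126 and 610.3 CPM in Follicular_wt (2.10 ± 0.60), and its partner Spcs1 368, 168 and 337 CPM in Plasma_wt, against 59.8, 64.7, 57.2 and 133 CPM in Follicular_wt (1.89 ± 0.41). Ssr4, of the translocon-associated complex, rose by 1.58 ± 0.34, Sec11c, the catalytic peptidase subunit, by 1.40 ± 0.38 and Sec61b, of the channel, by 1.28 ± 0.39. The pore gene Sec61a1 was not called (0.79 ± 0.37) and its plasma libraries straddled the follicular ones (149 to 432 CPM in Plasma_wt and 164 to 200.1 CPM in Follicular_wt). The count of rises was 0 without Plasma_wt replicate 3, 2 without Plasma_wt replicate 1 or Follicular_wt replicate 1, 2 or 3, 12 without Plasma_wt replicate 2 and 14 without Follicular_wt replicate 4. Single libraries decided the calls of Spcs2 (1.85 to 1.93), Sec61b (0.93 to 1.28) and Sec11c (1.15 to 1.51) without Plasma_wt replicate 1 or 3 or Follicular_wt replicate 1, 2 or 3 and Spcs1 (1.68) and Ssr4 (1.25) without Plasma_wt replicate 3.

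Of 22 genes of N-glycosylation and glycoprotein cargo, 6 rose and none fell (median 1.28), where 12.2% of all genes tested rose. Dpagt1, which starts the glycan precursor, had 122, 68.5 and 117 CPM in Plasma_wt, against 10.8, 11.7, 11.6 and 29.8 CPM in Follicular_wt (log2 fold change 2.68 ± 0.45, edgeR adjusted p = 0.00384). Lman1, a cargo receptor for glycoproteins, had 644, 179 and 447 CPM in Plasma_wt, against 81.2, 65.9, 69.8 and 103 CPM in Follicular_wt (log2 fold change 2.41 ± 0.43, edgeR adjusted p = 0.00465). Ddost, Rpn2 and Rpn1, subunits of the oligosaccharyltransferase, rose by 2.09 ± 0.47, 1.81 ± 0.46 and 1.64 ± 0.40. Of 29 genes of ER to Golgi transport, 6 rose and none fell (median 1.04), beside the same 12.2% of all genes. Sec24d, a cargo-binding coat protein of COPII, had 109, 41.97 and 143 CPM in Plasma_wt, against 10.8, 7.02, 11.5 and 18.3 CPM in Follicular_wt (log2 fold change 3.04 ± 0.49, edgeR adjusted p = 0.00302). Surf4, a cargo receptor, rose by 1.77 ± 0.50, Tmed10, of the p24 family, by 1.53 ± 0.33, Kdelr1, which returns ER residents, by 1.47 ± 0.34 and Preb, which activates the COPII switch Sar1, by 1.18 ± 0.28. In every one of these 10 genes all plasma libraries lay above all follicular ones. That was so for 1855 of all 1893 genes that rose, so it sets these 10 not apart. Counts that rose in the glycosylation list were 2 without Plasma_wt replicate 3, 3 without Plasma_wt replicate 1 or Follicular_wt replicate 1, 2 or 3 and 11 without Follicular_wt replicate 4, and in the transport list 1 without Plasma_wt replicate 3, 2 without Follicular_wt replicate 2 or 3, 3 without Plasma_wt replicate 1 or Follicular_wt replicate 1 and 17 without Follicular_wt replicate 4. The test was no longer passed by Rpn1 (1.46 to 1.54), Rpn2 (1.63 to 1.71), Surf4 (1.55 to 1.62) and Kdelr1 (1.19 to 1.45) without Plasma_wt replicate 1 or 3 or Follicular_wt replicate 1, 2 or 3, Ddost (1.96) and Tmed10 (1.40) without Plasma_wt replicate 3, and Preb (1.04 to 1.22) without Plasma_wt replicate 3 or Follicular_wt replicate 2 or 3.

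Of 25 tested genes of amino acid supply among 26 listed, 5 rose and none fell (median 0.70), where 12.2% of all genes tested rose. Pycr1, the last step of proline synthesis, had 82.1, 37.001 and 91.9 CPM in Plasma_wt, against 1.80, 0.896, 1.02 and 4.45 CPM in Follicular_wt (log2 fold change 5.10 ± 0.67, edgeR adjusted p = 0.00123). Slc7a11, the cystine transporter, had 4.81, 16.8 and 8.53 CPM in Plasma_wt, against 0.431, 0.784, 0.638 and 2.42 CPM in Follicular_wt (3.23 ± 0.79), with replicate 2 the highest plasma library. Mthfd2, of mitochondrial folate metabolism (1.65 ± 0.31), Slc3a2, the shared heavy chain of amino acid transporters (1.58 ± 0.30), and Yars1, the tyrosyl-tRNA synthetase (1.37 ± 0.38), also rose. The number that rose was 3 without Plasma_wt replicate 3 or Follicular_wt replicate 1, 2 or 3 and 12 without Follicular_wt replicate 4. Calls rested on single libraries for Slc7a11 (2.63 to 3.30) without Plasma_wt replicate 2 or 3 or Follicular_wt replicate 1, 2 or 3 and Yars1 (1.20 to 1.30) without Plasma_wt replicate 1 or 3 or Follicular_wt replicate 1, 2 or 3.

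**Figure D4:**
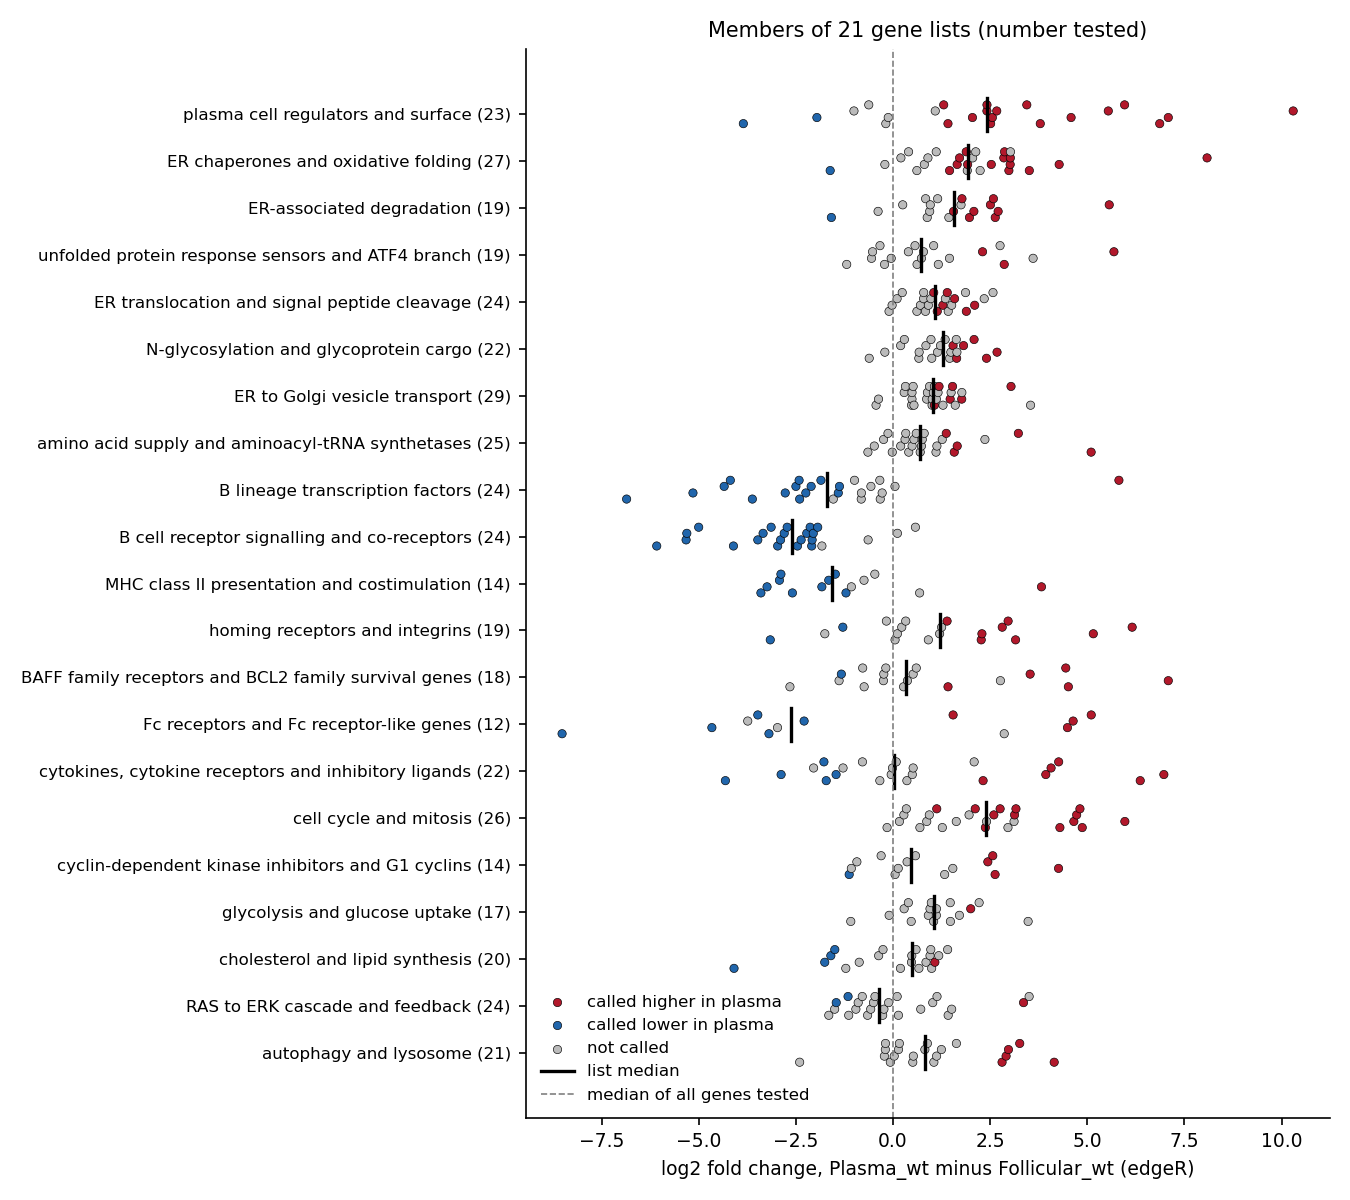
Log2 fold change (Plasma_wt over Follicular_wt) of every tested member of 21 gene lists, one row per list; red and blue points are called higher and lower at an adjusted p of 0.05, grey points are not called, and the vertical tick is the list's median. Secretory lists lie to the right, with medians of 0.70 to 1.92, and the lists of B cell receptor signalling (-2.59) and B lineage transcription factors (-1.70) to the left.

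Most transcription factors of the B cell program were lower in plasma cells. Of 24, 14 fell, 1 rose and 9 were not called (median -1.70), where 5.53% of all genes tested fell and 12.2% rose. Pax5, which holds B cell identity, had 11.3, 27.3 and 10.2 CPM in Plasma_wt, against 2292, 2278, 2377 and 599.9 CPM in Follicular_wt (log2 fold change -6.86 ± 0.73, edgeR adjusted p = 0.000506). Ebf1, its partner in early specification, had 86.5, 78.3 and 137 CPM in Plasma_wt, against 3992, 4449, 4216 and 1619 CPM in Follicular_wt (log2 fold change -5.15 ± 0.51, edgeR adjusted p = 0.000373). Plasma libraries were below follicular libraries by a wide margin for both, and Follicular_wt replicate 4 had the lowest follicular level of each. Bcl11a (-4.35 ± 0.64), Spib (-4.19 ± 0.56) and Zfp318, needed for IgD expression (-3.62 ± 0.38), fell next, followed by Mef2c (-2.77 ± 0.38), Ciita, the master regulator of MHC class II (-2.50 ± 0.34), Bach2, a repressor of Prdm1 (-2.42 ± 0.61), Pou2f2 (-2.40 ± 0.69), Rel (-2.25 ± 0.30) and Irf8 (-2.11 ± 0.34). Foxp1 (-1.86 ± 0.37), Id3 (-1.41 ± 0.40) and Foxo1 (-1.38 ± 0.41) fell by less. Ikzf2 (Helios) was the only member that rose (132, 188 and 112 CPM in Plasma_wt, against 0.470, 1.08, 6.60 and 2.03 CPM in Follicular_wt; 5.81 ± 0.83), and T cells express it too.

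Factors not called were Bcl6 (-1.54 ± 0.59), Tcf3 (-0.99 ± 0.50), Relb (-0.82 ± 0.39), Nfatc1 (-0.81 ± 0.35), Ets1 (-0.57 ± 0.29), Ikzf1 (-0.34 ± 0.36), Klf2 (-0.33 ± 0.38), Spi1 (-0.28 ± 0.44) and Tcf4 (0.05 ± 0.28). For Bcl6, the repressor of germinal center cells, Plasma_wt libraries had 63.7 to 129 CPM, against 57.04 CPM in Follicular_wt replicate 4 and 279.9 to 361 CPM in the other 3. Ikzf1 turned to 0.15 in exon reads, Spi1 to 0.06 without Plasma_wt replicate 1, and Tcf4 to -0.15 and -0.06 without Plasma_wt replicate 1 or 3. With 1 library left out, calls ended for Bach2 (-2.25 to -2.14) without Plasma_wt replicate 1 or 3 or Follicular_wt replicate 1 or 3, Pou2f2 (-2.39 to -2.13) and Foxo1 (-1.38 to -1.20) without Plasma_wt replicate 1 or 3 or Follicular_wt replicate 1, 2 or 3, and Id3 (-1.51 to -1.30) without Plasma_wt replicate 1 or 3 or Follicular_wt replicate 1 or 2.

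Most genes of antigen receptor signalling fell. Of 24 tested members of 25, 20 fell and none rose (median -2.59), against 5.53% of all genes that fell. Cr2, the gene of the sorting antigen CD21, had 9.83, 8.29 and 13.3 CPM in Plasma_wt, against 945, 649, 663 and 582 CPM in Follicular_wt (-6.08 ± 0.41), which the gate used. Cd22, an inhibitory co-receptor, had 8.62, 11.3 and 23.6 CPM in Plasma_wt, against 599, 469, 496 and 769 CPM in Follicular_wt (log2 fold change -5.33 ± 0.50, edgeR adjusted p = 0.000318). Bank1, a signalling scaffold, had 68.5, 69.03 and 114 CPM in Plasma_wt, against 4165, 2987, 3448 and 2704 CPM in Follicular_wt (log2 fold change -5.31 ± 0.41, edgeR adjusted p = 0.000171). Siglecg fell by 4.11 on the log2 scale (SE 0.61). The groups were apart for each, and 19 to 21 members fell when any 1 library was left out.

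Antigen presentation was lower in part. Of 14 tested members of 16 in the list of MHC class II and costimulation, 9 fell and 1 rose (median -1.57). Over all genes tested, 5.53% fell and 12.2% rose. H2-DMb2, a chaperone of peptide loading, had 218, 196 and 169 CPM in Plasma_wt, against 1458, 1092, 962 and 2394 CPM in Follicular_wt (-2.92 ± 0.41), Icosl, the ligand of the T cell receptor ICOS, 33.8, 24.3 and 22.4 CPM in Plasma_wt, against 301, 316, 261 and 256 CPM in Follicular_wt (-3.40 ± 0.32), and Cd40, which receives T cell help, 41.3, 16.6 and 27.5 CPM in Plasma_wt, against 204, 202, 161 and 275 CPM in Follicular_wt (-2.89 ± 0.40). Marchf1, the ligase that turns over surface MHC class II, also fell (-3.24 ± 0.34). Cd74, the invariant chain, had 7350.0, 6229.9 and 6565 CPM in Plasma_wt, against 10499, 9669, 7866 and 9137 CPM in Follicular_wt (log2 fold change -0.47 ± 0.28, edgeR adjusted p = 0.306), and H2-Ab1 differed by -0.75 ± 0.29 (adjusted p = 0.112, edgeR). Neither was called, although their plasma libraries lay below every follicular one. Cd80, a costimulatory ligand, rose (49.1, 13.4 and 40.5 CPM in Plasma_wt, against 2.15, 1.64, 3.86 and 2.03 CPM in Follicular_wt; 3.82 ± 0.56).

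Fc receptors went both ways, with 5 of 12 lower and 4 higher (median -2.63), against 5.53% and 12.2% of all genes tested. Fcer2a, the gene of the sorting antigen CD23, had 0, 2.89 and 1.66 CPM in Plasma_wt, against 414, 318, 346 and 1185 CPM in Follicular_wt (-8.52 ± 1.26), and Fcmr, the IgM receptor, 38.4, 23.2 and 25.2 CPM in Plasma_wt, against 631, 584, 440.2 and 1275 CPM in Follicular_wt (-4.66 ± 0.50). Both were far lower in every plasma library. Fcer1g, an adaptor of activating Fc receptors, had 325, 315 and 509.9 CPM in Plasma_wt, against 11.4, 10.6, 18.1 and 28.1 CPM in Follicular_wt (4.49 ± 0.44). Fcgr3 (5.10 ± 1.31) and Fcgr4 (4.64 ± 1.25) rose as well, and the other was Fcgrt. Fcer1g, Fcgr3 and Fcgr4 are genes of myeloid cells, whose marker sums were 2047 to 3254 CPM in Plasma_wt and 80.2 to 329 CPM in Follicular_wt for monocytes and macrophages. Members that rose numbered 2 without Plasma_wt replicate 3 or Follicular_wt replicate 3. Single libraries decided the calls of Fcgr3 (4.66 to 4.75) without Plasma_wt replicate 3 or Follicular_wt replicate 3 and Fcgr4 (4.03 to 4.33) without Plasma_wt replicate 3 or Follicular_wt replicate 1, 2 or 3.

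Homing receptors and integrins changed in both directions. Of 19 tested members of 20, 8 rose and 2 fell (median 1.20), against 12.2% and 5.53% of all genes tested. Cxcr5, which draws B cells into follicles, had 68.7, 35.7 and 57.7 CPM in Plasma_wt, against 410.2, 398, 389.6 and 734 CPM in Follicular_wt (log2 fold change -3.16 ± 0.41, edgeR adjusted p = 0.00115), and Ccr6 was the other that fell. Ccr10, a receptor of mucosal plasma cells, had 20.7, 19.998 and 22.01 CPM in Plasma_wt, against 0.0392, 0.0747, 0.606 and 0.413 CPM in Follicular_wt (log2 fold change 6.16 ± 0.88, edgeR adjusted p = 0.00171). Selplg, the P-selectin ligand PSGL-1, rose by 3.15 ± 0.30 and the integrin gene Itgb1 by 2.96 ± 0.32. Cxcr3, a receptor of inflamed sites that effector T cells also carry, had 75.7, 83.4 and 58.7 CPM in Plasma_wt, against 0.431, 0.821, 2.84 and 4.004 CPM in Follicular_wt (5.16 ± 0.74). Cxcr4, which holds plasma cells in bone marrow, was not called and was on the low side (49.7, 15.3 and 32.4 CPM in Plasma_wt, against 72.5, 149, 181 and 36.3 CPM in Follicular_wt; log2 fold change -1.76 ± 0.61, edgeR adjusted p = 0.0828).

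Of the BAFF receptor and BCL2 families, 18 of 20 genes were tested, 5 rose and Birc3 fell (median 0.32). Over all genes tested, 12.2% rose and 5.53% fell. Tnfrsf17 is given above. Tnfrsf13c, the BAFF receptor of resting B cells, had 78.96, 19.1 and 97.3 CPM in Plasma_wt, against 194, 173, 221 and 1052 CPM in Follicular_wt (log2 fold change -2.65 ± 0.83, edgeR adjusted p = 0.0556) and was not called, although the groups were apart. Bcl2a1a (4.51 ± 0.70), Bik (4.45 ± 1.21), Pmaip1, the gene of NOXA (3.53 ± 0.98), and Bcl2l1, the gene of BCL-XL (1.42 ± 0.35), rose. In exon reads only 2 members of the list were called higher. Mcl1 (0.52 ± 0.36), on which plasma cell survival depends, and Bcl2 (-0.24 ± 0.46; 0.63 in exon reads) were not called. Bcl2a1a has near-identical copies in the mouse genome and its reads may be shared with them. The count of rises was 2 without Plasma_wt replicate 3 or Follicular_wt replicate 1 and 3 without Plasma_wt replicate 2 or Follicular_wt replicate 3, and the single fall was lost, or joined by another, when most of the 7 libraries were left out in turn (0 to 2). The test was no longer passed by Pmaip1 (3.10 to 3.28) without Plasma_wt replicate 1 or 3 or Follicular_wt replicate 1, 2 or 3, Bik (3.85 to 4.47) without Plasma_wt replicate 2 or 3 or Follicular_wt replicate 1 or 3, and Bcl2l1 (1.24 to 1.38) without Plasma_wt replicate 2 or 3 or Follicular_wt replicate 1.

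Of 22 tested members of 24 in the list of cytokines, their receptors and inhibitory ligands, 6 rose and 5 fell (median 0.03). Shares over all genes tested were 12.2% and 5.53%. Tigit, an inhibitory receptor, had 99.6, 46.6 and 69.6 CPM in Plasma_wt, against 0.353, 0.672, 0.861 and 0.381 CPM in Follicular_wt (log2 fold change 6.97 ± 0.52, edgeR adjusted p = 0.000171), and Lag3, another, 11.3, 53.95 and 18.3 CPM in Plasma_wt, against 0.235, 0, 0.319 and 0.763 CPM in Follicular_wt (log2 fold change 6.36 ± 1.07, edgeR adjusted p = 0.00377). Il2ra rose by 4.07 ± 0.64 and Il15 by 4.26 ± 0.99, and Il10 was also among those that rose. T cells and natural killer cells also express Tigit, Lag3 and Il2ra, and the part of their RNA in these rises was not tested. Il12a fell (0.0669, 1.02 and 4.53 CPM in Plasma_wt, against 26.8, 43.5, 30.3 and 49.9 CPM in Follicular_wt; -4.32 ± 1.01). The number that rose was 3 without Plasma_wt replicate 3 or Follicular_wt replicate 1, and the number that fell 3 without Plasma_wt replicate 3 or Follicular_wt replicate 3. Il15 lost its call without Follicular_wt replicate 1 or Plasma_wt replicate 3 (3.93 to 4.05).

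Many genes of the cell cycle were higher in Plasma_wt. Plasmablasts, the dividing precursors of plasma cells, also carry CD138. Of 26 genes, 13 rose and none fell (median 2.39), where 12.2% of all genes tested rose. Mki67, the proliferation antigen, had 132, 167 and 138 CPM in Plasma_wt, against 0.548, 2.50, 2.84 and 3.37 CPM in Follicular_wt (log2 fold change 5.97 ± 0.58, edgeR adjusted p = 0.000356), and Top2a, which untangles replicated DNA, 111, 81.97 and 94.005 CPM in Plasma_wt, against 4.43, 4.63, 5.52 and 4.89 CPM in Follicular_wt (log2 fold change 4.29 ± 0.31, edgeR adjusted p = 0.000163). Birc5 (4.81 ± 0.82), Ube2c (4.87 ± 1.05) and Rrm2, a subunit of ribonucleotide reductase (4.65 ± 0.93), rose too. Mki67 and Top2a were narrow within Plasma_wt. Pcna was not called (0.93 ± 0.67), with 32.4 to 106 CPM in Plasma_wt, against 86.7 CPM in Follicular_wt replicate 4 and 15.9 to 22.1 CPM in the other 3. Members that rose numbered 8 without Follicular_wt replicate 1 or 3 and 21 without Follicular_wt replicate 4. The part of dividing cells of other types was not tested.

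Of 17 listed inhibitors of cyclin-dependent kinases and G1 cyclins, 14 were tested, 4 rose and Rb1 fell (median 0.47). Over all genes tested, 12.2% rose and 5.53% fell. Ccnd1 had 29.2, 68.8 and 33.8 CPM in Plasma_wt, against 3.56, 1.01, 2.33 and 2.26 CPM in Follicular_wt (log2 fold change 4.26 ± 0.55, edgeR adjusted p = 0.00113) and Ccnd2 793, 820.5 and 639.8 CPM in Plasma_wt, against 110.3, 101, 117 and 179 CPM in Follicular_wt (log2 fold change 2.57 ± 0.31, edgeR adjusted p = 0.000889), both D-type cyclins of G1. Cdkn2c, the gene of p18, the inhibitor needed for plasma cell exit from the cycle, rose by 2.63 ± 0.60, and Cdkn1a, the gene of p21, by 2.44 ± 0.53. Rb1 fell (-1.13 ± 0.32), with -0.13 in exon reads. Calls rested on single libraries for Rb1 (-1.27 to -1.03) without Plasma_wt replicate 1, 2 or 3 or Follicular_wt replicate 1, 2 or 3, Cdkn2c (2.46 to 2.56) without Follicular_wt replicate 1 or 2, and Cdkn1a (1.97) without Plasma_wt replicate 3.

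Metabolism was read from a glycolysis and a lipid list. Of 17 tested glycolysis genes, where 12.2% of all genes tested rose, 1 rose, Slc16a1, a lactate transporter (35.3, 19.4 and 76.005 CPM in Plasma_wt, against 5.05, 8.51, 14.7 and 15.3 CPM in Follicular_wt; log2 fold change 2.00 ± 0.56, edgeR adjusted p = 0.0361; list median 1.04), and 7 rose without Follicular_wt replicate 4. Of 20 tested genes of cholesterol and lipid synthesis, 4 fell and 1 rose (median 0.48), against 5.53% and 12.2% of all genes tested. Scd1, a fatty acid desaturase, had 46.3, 7.22 and 59.3 CPM in Plasma_wt, against 345, 483, 602 and 1136 CPM in Follicular_wt (log2 fold change -4.09 ± 0.77, edgeR adjusted p = 0.00629). Acaca, of fatty acid synthesis (-1.76 ± 0.43), the sterol regulator Srebf2 (-1.60 ± 0.40) and Lpcat1 (-1.5 ± 0.27) also fell, and Pcyt1a, the rate-limiting step of phosphatidylcholine synthesis, rose (34.97, 44.8 and 44.1 CPM in Plasma_wt, against 20.9, 16.5, 20.99 and 19.99 CPM in Follicular_wt; 1.08 ± 0.31). The number that fell was 2 without Plasma_wt replicate 1 or 3 or Follicular_wt replicate 1, 2 or 3. With 1 library left out, calls ended for Slc16a1 (1.26 to 2.18), Acaca (-1.75 to -1.57) and Srebf2 (-1.77 to -1.38) without Plasma_wt replicate 1 or 3 or Follicular_wt replicate 1, 2 or 3 and Pcyt1a (0.95 to 1.11) without Plasma_wt replicate 2 or 3 or Follicular_wt replicate 1, 2 or 3. Without Follicular_wt replicate 4, 5 genes of the lipid list rose. In exon reads none of the lipid list was called higher and 2 were called lower.

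Autophagy and lysosome genes rose in 5 of 21 cases, and none fell (median 0.82), where 12.2% of all genes tested rose. Wipi1, of autophagosome formation, had 47.4, 24.2 and 45.2 CPM in Plasma_wt, against 1.76, 1.68, 1.28 and 4.04 CPM in Follicular_wt (log2 fold change 4.15 ± 0.53, edgeR adjusted p = 0.00115), and Gabarapl1, an autophagosome protein, 25.7, 23.9 and 26.7 CPM in Plasma_wt, against 1.45, 4.07, 2.14 and 6.86 CPM in Follicular_wt (log2 fold change 2.81 ± 0.57, edgeR adjusted p = 0.00902). The protease gene Ctsb had 1589.8, 1390.2 and 1546 CPM in Plasma_wt, against 81.5, 63.3, 59.7 and 425 CPM in Follicular_wt (3.26 ± 0.72), with Ctsd (2.97 ± 0.35) and Ctsl (2.91 ± 0.85) moving likewise. The cathepsins are abundant in myeloid cells, whose sums are given above. Without Follicular_wt replicate 4, 12 rose and 1 fell. Single libraries decided the calls of Ctsl (2.59 to 2.82) without Plasma_wt replicate 1 or 3 or Follicular_wt replicate 1, 2 or 3.

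The RAS to ERK cascade, on which the mutant genotype of the series bears, was compared in wild-type cells. Of 24 genes, 2 fell and 1 rose (median -0.37), against 5.53% and 12.2% of all genes tested. Map2k1, the gene of MEK1, had 132, 57.9 and 126 CPM in Plasma_wt, against 264, 329, 265 and 301 CPM in Follicular_wt (log2 fold change -1.46 ± 0.35, edgeR adjusted p = 0.0188), and it was not called in exon reads (-0.39). Map2k2, the gene of MEK2, had 80.2, 142 and 87.6 CPM in Plasma_wt, against 144, 146, 114 and 81.7 CPM in Follicular_wt (log2 fold change -0.23 ± 0.34, edgeR adjusted p = 0.684). Mapk3, the gene of ERK1, differed by -0.46 ± 0.45 without a call. Spry2, a feedback inhibitor, rose (23.5, 1.71 and 6.76 CPM in Plasma_wt, against 0.548, 1.61, 1.08 and 0.890 CPM in Follicular_wt; 3.36 ± 0.88) mostly through Plasma_wt replicate 1. No member of this list was called higher in exon reads. The count of rises was 0 without Plasma_wt replicate 1 or 3 or Follicular_wt replicate 1, 2 or 3 and 2 without Plasma_wt replicate 2. Falls numbered 0 without Follicular_wt replicate 2, 1 without Plasma_wt replicate 3 or Follicular_wt replicate 1 or 3 and 4 without Plasma_wt replicate 2 or Follicular_wt replicate 4. The test was no longer passed by Map2k1 (-1.40) without Follicular_wt replicate 2 and Spry2 (2.00 to 3.65) without Plasma_wt replicate 1 or 3 or Follicular_wt replicate 1, 2 or 3.

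The largest rises in the gene-span counts were not of plasma cell genes. The immunoglobulin constant genes other than Igha are at 0 in those counts and could not enter the rankings of rises and falls. In exon reads Ighe rose by 12.30 ± 1.36 (edgeR adjusted p = 0.000763), beside 15.9 for Ltf and 11.7 for Klri2. Among genes of at least 20 CPM whose groups did not overlap, the 10 with the largest positive log2 fold change were Ltf, Lcn2, S100a9, Prss34, S100a8, Chil3, Hp, Fcnb, Klri2 and Il1rn. Ltf, S100a8, S100a9 and Lcn2 are granule or cytoplasmic proteins of neutrophils, and Prss34 is a protease of basophils. S100a8 had 307, 403 and 446 CPM in Plasma_wt, against 0.0783, 0, 0 and 0.127 CPM in Follicular_wt, and Ltf 132, 662 and 245 CPM in Plasma_wt, against 0, 0, 0 and 0.0318 CPM in Follicular_wt. Pooled counts were at least 2725 times higher in Plasma_wt for Lcn2, 1852 times for Prss34, 937.6 times for Fcnb, 867 times for Klri2 and 874 times for Il1rn, whose Follicular_wt libraries were all at 0 (set at 3 counts over the group). Ngp, a neutrophil granule gene and the most abundant of its list, averaged 1662 ± 1231 CPM in Plasma_wt and 0.400 ± 0.679 CPM in Follicular_wt (SD). Lck of T cells averaged 1408 ± 801 CPM in Plasma_wt and 77.2 ± 20.2 CPM in Follicular_wt, and Nkg7 of cytotoxic cells 578 ± 221 and 7.33 ± 7.58 CPM. Lyz2 of myeloid cells averaged 1464 ± 481 CPM in Plasma_wt and 17.7 ± 28.1 CPM in Follicular_wt. Hbb-bs of red cells, which has a near-identical copy, averaged 727 ± 202 CPM in Plasma_wt and 71.9 ± 31.5 CPM in Follicular_wt. Prg2 averaged 839.8 ± 382 CPM in Plasma_wt and 0.284 ± 0.254 CPM in Follicular_wt, without the eosinophil genes Epx and Siglecf at like levels. Of the genes called higher, 65 were at 0 in every follicular library.

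The 10 largest falls, by the same rule, held 2 B cell genes described above, Fcer2a and Pax5. The others were Crip3, Cacna1i, Trabd2b, Gm11690, Gm34225, Gm16341, Gm5281 and C330008A17Rik. Cacna1i, a T-type calcium channel gene, had 0, 3.05 and 0 CPM in Plasma_wt, against 199, 176, 205 and 53.4 CPM in Follicular_wt (-7.25 ± 1.5), with reads in a single plasma library, replicate 2. Gm34225 had 0, 0.267 and 0 CPM in Plasma_wt, against 34.7, 45.4, 50.2 and 42.4 CPM in Follicular_wt and C330008A17Rik 0, 0.267 and 0 CPM in Plasma_wt, against 20.3, 23.9, 24.1 and 25.8 CPM in Follicular_wt, both narrow within Follicular_wt. Crip3 had 0, 0.0535 and 0 CPM in Plasma_wt, against 31.6, 29.5, 25.7 and 9.53 CPM in Follicular_wt. Of the genes called lower, 14 were at 0 in every plasma library.

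The contrast was repeated in the mice labelled 1Mek2, a separate set of libraries. There 2944 of 14822 genes passed (19.9%), with 2062 higher (13.9%) and 882 lower (5.95%) in Plasma_1Mek2. Of the 1893 genes that rose in wild type, 1680 were tested there, 1645 had the same sign and 1210 were called, which is 63.9% of the wild-type list and 58.7% of the other. Of the 861 that fell, 830 were tested, 810 had the same sign and 479 were called (55.6% and 54.3%). No gene called in both had opposite signs. The log2 fold change of Jchain was 8.92 ± 1.17 in 1Mek2 and 10.30 ± 0.90 in wild type, that of Prdm1 5.58 ± 0.51 and 5.54 ± 0.75, that of Derl3 5.91 ± 0.40 and 5.57 ± 0.39, and that of Pax5 -6.08 ± 0.78 and -6.86 ± 0.73. Irf4, whose wild-type groups overlapped, had 2.54 ± 0.48 in 1Mek2. In most ER lists more members rose in 1Mek2 than in wild type: 15 against 9 of 19 for degradation, 16 against 7 of 24 for translocation and 12 against 6 of 29 for ER to Golgi transport. For glycosylation it was 11 against 6, for chaperones 16 against 14 and for stress sensing 3 against 3. Without Follicular_wt replicate 4 the wild-type counts in these lists were, in the same order, 13, 14, 17, 11, 19 and 7. The difference between genotypes was tested as an interaction of genotype and subset over 16455 genes. No gene passed in edgeR, with 1066 at an unadjusted p under 0.05, while DESeq2 passed 140, and a difference between genotypes is not shown for these lists.

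**Figure D5:**
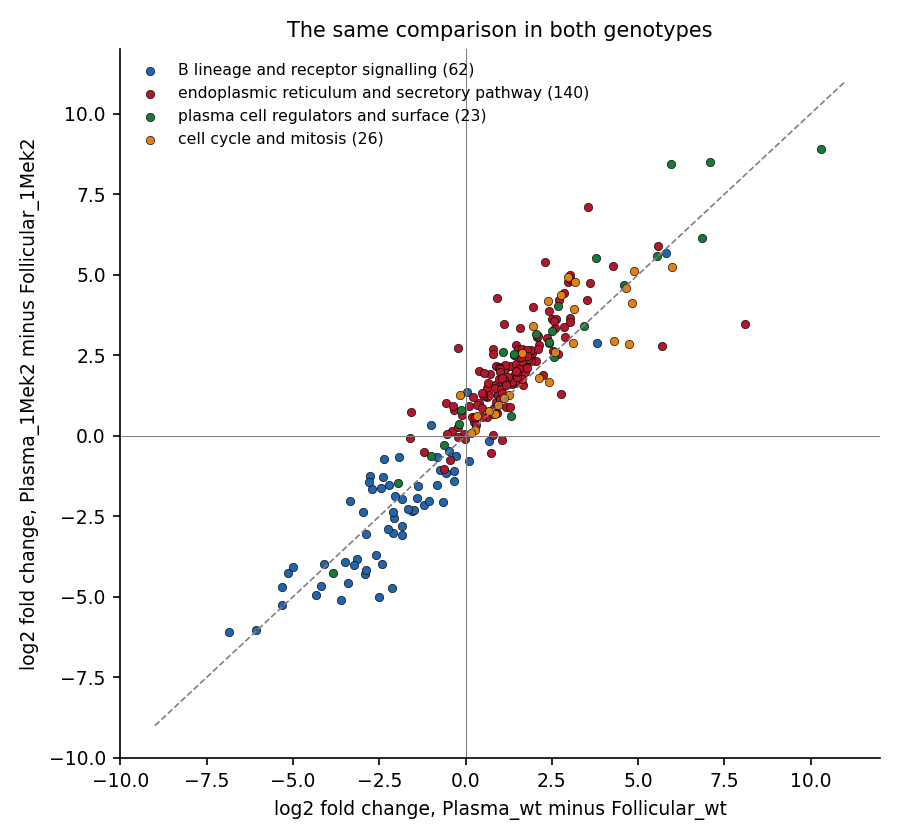
Log2 fold change (Plasma minus Follicular) of list members in mice labelled 1Mek2 (vertical axis) against wild type (horizontal axis), with the line of equality; each point is a gene tested in both, coloured by the kind of list. The 62 B lineage and receptor signalling genes lie mostly at the lower left, and the 140 ER and secretory pathway genes, the 23 plasma cell regulators and the 26 cell cycle genes mostly at the upper right.

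Set beside the other 4 wild-type subsets, part of the plasma cell program was highest in plasma cells and part was shared. With all libraries scaled together, Jchain averaged 9838 ± 4015 CPM in Plasma_wt, 1012 ± 409 in GC_wt (germinal center), 344 ± 324 in Immature_wt, 10.1 ± 9.65 in MarginalZone_wt, 6.43 ± 3.67 in ABC_wt and 7.77 ± 7.82 in Follicular_wt (SD, n = 3 or 4). The lowest 3 do not differ beyond their spread. Derl3 averaged 195 ± 71.7 CPM in Plasma_wt and at most 14.4 ± 8.65, in GC_wt, elsewhere. Prdm1 averaged 72.9 ± 56.1 CPM in Plasma_wt, 18.4 ± 6.90 in GC_wt, 10.99 ± 3.96 in MarginalZone_wt, 6.55 ± 3.17 in Immature_wt, 6.23 ± 9.62 in ABC_wt and 1.5 ± 0.931 in Follicular_wt. For Prdm1, Xbp1, Jchain, Sdc1 and Il6st among the 16 regulators that rose, the lowest plasma library exceeded every library of the other 5 subsets. The same held for 8 of 14 ER chaperones, 3 of 9 degradation genes, 4 of 7 translocation genes and 4 of 8 homing genes, Ccr10 among them. It held for none of the 13 cell cycle genes and 0 of 3 stress sensing genes. It also held for 4 of 5 autophagy and lysosome genes and 3 of 4 Fc receptor genes, lists that include genes of myeloid cells. The share over all genes that rose is not given here, so these counts do not set the plasma cell program apart. Mki67 averaged 136 ± 13.8 CPM in Plasma_wt, against 685 ± 86.04 in GC_wt and 2.12 ± 1.14 in Follicular_wt. Ell2, with 269 ± 181 CPM in Plasma_wt, 231 ± 74.1 in GC_wt and 190.2 ± 54.9 in ABC_wt, was near them in level, and in Follicular_wt it averaged 49.2 ± 10.7. These levels across subsets are a description and were not tested.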

How the data were processed

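RNA was measured in 7 libraries, 3 Plasma_wt and 4 Follicular_wt, and the groups follow the cell type and genotype labels. The submitters' processing notes name Trim Galore 0.6.5, STAR 2.7.11a and featureCounts 2.0.3, and the build GRCm39. The deposited count table holds whole reads per gene over 50763 genes, of which 50760 were counted as 1 interval with introns, so overlapping genes can share reads; whether strand was used is not given in the sources used here. In those counts 1849 genes with a mean of 10 or more exon reads were at 0, the immunoglobulin constant genes other than Igha among them. The deposited TPM table holds 41075 entries (6 without a gene name, left out). TPM times exon length gave whole exon reads for 100% of values within 0.02, and these reads were tested as an alternative, in which edgeR called 2504 of 15548 genes (16.1%).

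Counts were scaled by TMM, filtered with filterByExpr and tested by edgeR 4.0.16 (quasi-likelihood, robust) in R 4.3.3, with Benjamini-Hochberg adjustment over all genes and a threshold of 0.05. TPM was tested by limma 3.58.1 (trend) on log2(TPM + 1) for entries of at least 1 TPM in 3 libraries. The DESeq2 version was 1.42.0. Summed lists were compared by exact permutation. The fits were tested on simulated data. No column was left unmapped (0).

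Named were the markers, the 10 largest rises and falls of at least 20 CPM without overlap, up to 5 called members of each list of at least 5 CPM, all regulators, B lineage factors and constant genes, and the most abundant members of other-cell lists (160 genes). Another 20 were named after their values were seen, as were 6 markers of other cells that are above 0 only in the TPM table. The members and lists were chosen with earlier results of these data known. Values of some list members are not reported here, though the counts of their lists include them.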

Additional observations from a re-analysis of the deposited data

Results flagged for a closer look

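In 61 of 234 sets of 4 values examined, 1 Follicular_wt library lay far from the other 3. Each set is a gene, a list sum or a library measure over the same libraries, so the sets are not independent. Chance flags about 1 in 20 single sets, and this rate cannot judge the number flagged here. The far library was replicate 4 in 51 of them. Groups of 3, as in Plasma_wt, were not examined.

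Replicate 4 had 87.3 exon reads per 100 gene-span counts, against 61.7 to 64.3 in the other 3. In summed CPM it lay above the other 3 for ER chaperones and oxidative folding (5631 against 2090.0 to 2279), N-glycosylation and glycoprotein cargo (3242 against 1807 to 1941), ER to Golgi vesicle transport (4293 against 2266 to 2509) and amino acid supply and aminoacyl-tRNA synthetases (2703 against 1726 to 1860.0). It did so too for BAFF family receptors and BCL2 family survival genes (3706 against 2527 to 2711), Fc receptors and Fc receptor-like genes (4770.0 against 1768 to 2203), cell cycle and mitosis (583 against 261 to 283) and RAS to ERK cascade and feedback (1977 against 1823 to 1844). It lay below them for B lineage transcription factors (10621 against 20450.0 to 21655).

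By gene, in CPM, replicate 4 lay above the other 3 for Cd9 (42.01 against 4.85 to 7.15), Ctsb (425 against 59.7 to 81.5), Ctsl (4.86 against 0.447 to 1.01), Cxcr5 (734 against 389.6 to 410.2), Ddost (253 against 71.5 to 97.4) and Dnajc3 (78.3 against 50.5 to 54.97). So it did for Dpagt1 (29.8 against 10.8 to 11.7), Fcer2a (1185 against 318 to 414), Fcgr3 (12.8 against 0.299 to 0.574), Fcgr4 (2.77 against 0.0747 to 0.223), Herpud1 (492 against 157 to 172) and Hsp90b1 (779.6 against 251 to 291). The same position held for Hspa5 (296 against 83.2 to 104), Ltf (0.0318 against 0), Lyz2 (59.8 against 2.39 to 4.88), Pcna (86.7 against 15.9 to 22.1), Pdia6 (419 against 58.5 to 106) and Pmaip1 (16.2 against 1.33 to 2.39). Higher values again were found for Rpn1 (255 against 109 to 118), Rpn2 (243 against 70.1 to 93.96), Rrm2 (9.03 against 0.823 to 1.42), Sdc1 (9.72 against 1.16 to 2.23), Sel1l (169 against 68.9 to 85.9) and Spcs1 (133 against 57.2 to 64.7). Further genes were Spcs2 (610.3 against 126 to 161), Surf4 (191 against 52.4 to 61.4), Tmed10 (289 against 159.9 to 171), Tnfrsf13b (660.4 against 215 to 251), Tnfrsf13c (1052 against 173 to 221) and Ube2c (3.75 against 0.157 to 0.351). The rest were Ube2j1 (91.3 against 28.5 to 30.3), Xbp1 (274 against 37.2 to 67.1) and Yars1 (72.3 against 29.9 to 36.03). It lay below them for Ebf1 (1619 against 3992 to 4449), Ikzf3 (268 against 859 to 970.4), Marchf1 (724 against 1051 to 1080.0), Pax5 (599.9 against 2278 to 2377) and Tcf3 (67.1 against 133 to 146). In TPM it lay above them for Ighg2b (29.2 against 5.13 to 7.61), Igha (13.1 against 9.58 to 10.1) and Jchain (22.2 against 4.77 to 7.61).

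Replicate 1 stood apart for neutrophils in summed CPM (2.19 against 0.411 to 0.670), stromal and endothelial cells in summed CPM (422 against 374 to 382), Ngp in CPM (1.41 against 0 to 0.191), Pecam1 in CPM (421 against 371 to 379) and S100a9 in CPM (0.0783 against 0). Replicate 2 stood apart for Ighg3 in TPM (63.2 against 37.04 to 38.7). Replicate 3 stood apart for Chil3 in CPM (0.160 against 0), Pdia5 in CPM (0.0638 against 0), Preb in CPM (50.5 against 78.5 to 83.2) and Rel in CPM (584 against 452 to 473).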

How the results depend on the processing

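The count of genes called was 4767 with DESeq2, 4616 without Follicular_wt replicate 4 and 1775 in a test against a fold of 2. Leaving out 1 library at a time gave 1859 to 4616 called, 1418 to 2976 higher and 431 to 1640 lower. DESeq2 called 2994 higher and 1773 lower, and the fit of all wild-type libraries called 480 lower. A term for library kind, chosen after seeing the data, gave 1379 lower. Called members of the 21 lists numbered 181, and 112 to 267 with 1 library left out. The interaction of genotype and subset passed no gene (0), 2 without the filter on low counts, 140 with DESeq2 and 0 to 7 with 1 library left out. The 12 immunoglobulin calls became 9 to 11.

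Replicate numbers, which do not stand for animals, did not pair the samples (correlations of same-numbered deviations -0.186, 0.225 and -0.086). For animal 412, Plasma_wt replicate 2 and Follicular_wt replicate 1 had 0.351. Plasma_wt replicate 2 had 0.225, 0.249 and -0.451 with Follicular_wt replicates 2, 3 and 4. That pair alone cannot show whether libraries of an animal go together. With the animal as a random block, limma voom called 3103 genes, 2076 higher and 1027 lower. The replicate block gave 3308 calls, 2119 higher and 1189 lower.

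Of 180 named genes under 15 settings, 2407 of 2697 values kept direction and side of the threshold, 253 no longer passed, 25 newly passed and 12 reversed. In exon reads Bcl2 was 0.63, Glcci1 0.37, Ikzf1 0.15 and Zbtb20 0.82. Tcf4 was -0.05 without the filter, -0.15 without Plasma_wt replicate 1, -0.06 without Plasma_wt replicate 3 and 0.17 at the highest. Spi1 ran from -0.82 to 0.06, the second without Plasma_wt replicate 1. Tnfrsf13b was 0.14 under the replicate block, 0.37 without Follicular_wt replicate 4 and 0.20 without Plasma_wt replicate 2, and -0.60 at the lowest. Zbtb20 ran from -0.33 to 0.00, the second without Follicular_wt replicate 3. Iglc2 was 0.20 with median centring, 0.53 in exon reads and ran from -0.52 to 0.28 with 1 library left out, the second without Plasma_wt replicate 2. None of these was called under the main settings, and the cause was not tested. Without the filter the median of all genes shifted by -0.102, and under 0.1 elsewhere. Counts in Plasma_wt, at most 18516751 a library, and 3 libraries limit what low genes can show.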

Other observations

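Other stress response spellings were searched in the same RefSeq promoters (GRCm38.p6). UPRE (TGACGTGG, both strands), another spelling bound by XBP1, was in 193 of 27025 promoters (0.714%). It was in 5 of the 25 promoters of the ER to Golgi list (20%), those of Sec23a, Sec24d, Copb1, Copb2 and Kdelr3, of which Sec24d rose, and in 2 of the 16 of ER-associated degradation (12.5%), Vcp and Ube2j1, of which Ube2j1 rose. Over all promoters with it, 14 genes rose and 6 fell among 114 tested, close to the 12.2% and 5.53% of all genes tested. The amino acid response element (AARE, ATTGCATCA, both strands) was in 60 promoters (0.222%), among them Pycr1, which rose, and Aars1, which was not called, in the amino acid list. These are descriptions of letters in a window of 250 bases before to 50 after the start, with no test.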
